A study of Mus musculus with 16 samples.

Results

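The genes described here are the nuclear genes of oxidative phosphorylation, which encode the subunits of respiratory complexes I to IV and of the ATP synthase, complex V. They were taken by symbol: genes named Nduf with a, b, c, s or v, Sdha to Sdhd, those starting with Uqcr, Cyc1, Cox4 to Cox8 and those starting with Atp5. Of the 20124 named genes with a probe, 94 matched. These comprised 86 subunits, with 36 in complex I, 4 in complex II, 9 in complex III, 20 in complex IV and 17 in complex V, and 8 assembly factors of complex I (Ndufaf1 to Ndufaf8). Ndufa4 and Ndufa4l2 were placed in complex IV, where the Ndufa4 protein is now assigned.

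Expression was measured in mitral cells of ICR mice, which carry the output of the olfactory bulb. Plasmids were brought in by in utero electroporation at embryonic day 12, and the embryos received pCAG-EYFP alone (control) or with pCAG-EYFP and pCAG-Kir2.1, in which the broadly active CAG promoter drives the inwardly rectifying potassium channel Kir2.1, known to hold neurons near their resting potential. All 4 groups thus carried EYFP and the electroporation, and they were control and Kir2.1 cells at postnatal day 3 (P3) and at postnatal day 6 (P6). Fluorescent cells were picked by hand and the cDNA of each was amplified by 30 cycles of PCR. Only cells positive in PCR for EYFP and for Pcdh21 (the gene Cdhr1) were used, and each array received cDNA from a pool of 10 such cells. Each group held 4 pools. The number of animals behind the pools is not in the labels. The p-values therefore reflect variation among pools, part of which may be technical. Each gene's spread was shared by all 4 groups in the fit. A p-value for P3 thus also reflects the P6 pools, and a p-value for P6 the P3 pools. All P3 arrays lay on one slide and all P6 arrays on another, scanned separately, so the effects of age and of slide cannot be told apart; within each slide the control pools lay in one row and the Kir2.1 pools in the other, so treatment and row cannot be told apart.

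Oxidative phosphorylation passes electrons from NADH, through complex I, and from succinate, through complex II, to ubiquinone, then through complex III, cytochrome c and complex IV to oxygen. Complexes I, III and IV pump protons across the inner mitochondrial membrane, and complex V uses the gradient to make ATP. Complex II also works in the tricarboxylic acid cycle, pumps no protons and is encoded by nuclear genes alone, whereas the other complexes combine nuclear subunits with subunits of the mitochondrial genome. Neurons spend much of their ATP on restoring ion gradients after electrical activity.

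Most of the genes were bright. A probe was well above background on all 16 arrays for 83 of the 94 genes, and 90 genes, 82 of them subunits, were well above background on at least 4 arrays and were tested. Levels are given as log2 signal after each array was scaled by its 75th percentile over the probes detected on every array; a level of one gene is not compared with that of another, since probes differ in brightness. The 4 genes not tested were Ndufab1, the mitochondrial acyl carrier protein, and Ndufa4l2, each above background on 2 arrays, and Cox8b and Cox8c, above it on 0 arrays. The spread between pools of a group was smaller in these genes than in most. Over the 83 genes above background everywhere, the median SD in control cells was 0.21 at P3 and 0.37 at P6, and in Kir2.1 cells 0.23 and 0.35. The same medians over the 6460 named genes above background on all arrays were 0.43 and 0.65 in control cells and 0.53 and 0.65 in Kir2.1 cells. The sets were not matched for brightness: the pool medians of P3 control averaged 2.15 over the 83 genes and -1.46 over the 6460. The part of brightness in the spread was not tested.

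Certain pools stood apart. Pool 3 of P6 Kir2.1 held the lowest value of its group in 52 of the 83 genes (62.7%), against 33.9% of the named genes above background everywhere. Pool 3 of P6 control held the lowest value in 39 of 83 (47%, against 30.7%), and pool 2 of P3 control the highest in 43 of 83 (51.8%, against 26.9%). Kcnj2, the endogenous gene of Kir2.1, was above background on 0 arrays; this gives no check of the labels, since the probe may not read the plasmid's cDNA. Of 10 markers of mitral and tufted cells, 8 or 9 were above background in every pool, with Lhx5 above it on none, and Cdhr1 in control cells was at 3.31 ± 0.33 (SD, n = 4) at P3 and 3.08 ± 0.33 at P6, and in Kir2.1 cells at 2.75 ± 0.43 and 3.75 ± 0.25.

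Markers of other cells differed between groups as well. The log2 of the summed signal of 11 markers of olfactory bulb interneurons lay between 1.17 and 2.93 in P6 control, where 9 or 10 of them were above background, between -0.90 and 1.42 in P6 Kir2.1, between -1.04 and -0.17 in P3 control and between -0.59 and 0.01 in P3 Kir2.1. Calb2 was above background in no P6 control pool and Penk in no P6 Kir2.1 pool. At P3, Dlx1, Penk and Calb2 were above background in no Kir2.1 pool and Dlx1 in no control pool. For 6 markers of astrocytes and radial glia the sum in control cells lay between 0.80 and 2.12 at P3 and between 3.55 and 3.81 at P6, and in Kir2.1 cells between 1.82 and 3.34 and between 1.97 and 3.95. The sum of the mitral and tufted cell markers lay between 3.23 and 4.06 in P6 control and between 4.13 and 4.61 in P6 Kir2.1, which did not overlap. Cdhr1, for which the cells were chosen, had the highest mean of the tested markers in every group and so weighs most in this sum. Of the 9 tested markers, 6 were higher and 3 lower with Kir2.1 at P6. Means in P6 control and P6 Kir2.1 were 0.04 and -1.17 for Ntng1, -1.61 and -2.9 for Pcdh17 and -3.65 and -3.95 for Nrp1. The interneuron sum and the sum of astrocytes and radial glia were thus higher in P6 control than in P3 control without overlap. Those of both P6 groups overlapped, yet most single markers were lower in P6 Kir2.1 than in P6 control. Of 10 tested interneuron markers 9 were lower, with a median difference of -2.71. An adjusted p under 0.05 in limma was reached by 1 of them, beside 1.8% of named genes. All 6 markers of astrocytes and radial glia were lower, with a median of -1.02, and 0 reached that threshold. For 6 oligodendrocyte markers the sum in control cells lay between -0.84 and 1.97 at P3 and between 0.51 and 2.52 at P6, and in Kir2.1 cells between -0.89 and 1.54 and between -0.02 and 2.55, all overlapping. For 6 microglial markers it lay between -1.86 and -1.39 and between -1.21 and 0.26 in control cells, without overlap, and between -2.46 and -1.45 and between -2.39 and -0.76 in Kir2.1 cells. C1qa, C1qc and Cx3cr1 were above background in no P6 Kir2.1 pool. At P3 this also held for C1qa and Cx3cr1 in control cells and for C1qa and C1qc in Kir2.1 cells. The sum of 5 vascular markers was at most 0.01 in every pool except pools 1 and 2 of P6 Kir2.1, at 1.85 and 1.67. The part of these markers in the results below was not tested. In such pooled samples, fewer cells of a type and less RNA per cell cannot be told apart.

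**Figure D1:**
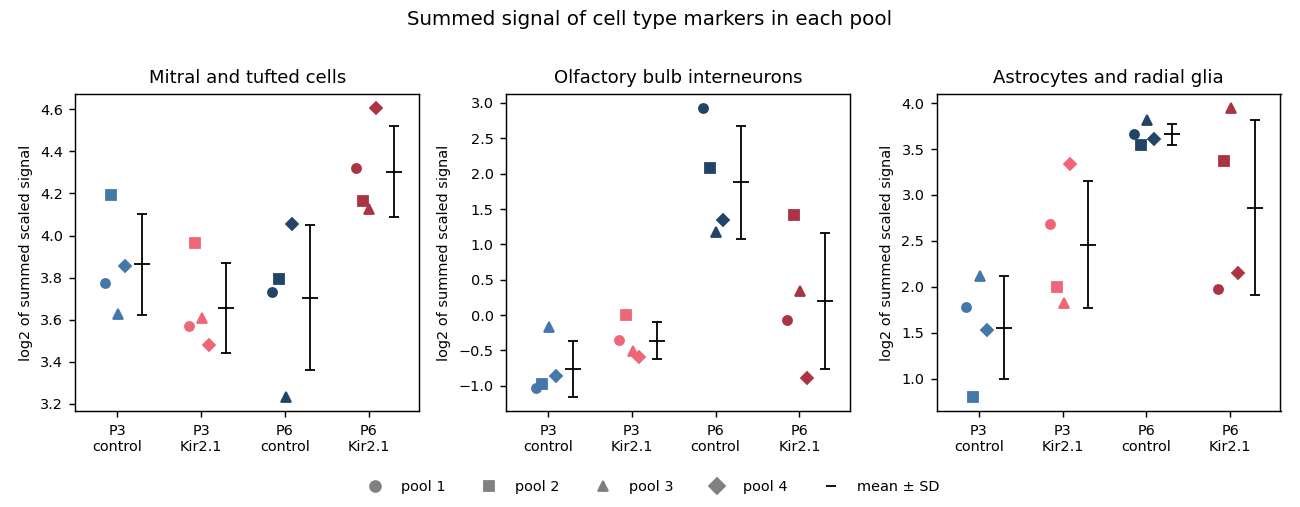
Summed signal of cell type markers in each pool, as log2 of the sum of scaled signals (vertical axis) for the 4 groups (horizontal axis); symbols mark the pools and black bars the mean ± SD of 4 pools. P6 control pools reached 1.17 to 2.93 for interneuron markers, and the mitral and tufted sum of P6 Kir2.1 (4.13 to 4.61) lay above that of P6 control (3.23 to 4.06). Cdhr1 weighs most in the latter sum, and of the 9 tested markers 6 were higher and 3 lower in P6 Kir2.1.

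From P3 to P6, control cells showed lower levels of most oxidative phosphorylation genes. The difference was below 0 in 75 of the 90 tested genes, with a median of -0.42 on the log2 scale, against -0.08 over the 12035 named genes tested. Sdha, the catalytic flavoprotein of complex II, and Cyc1, the cytochrome c1 of complex III, fell with an adjusted p under 0.05 (limma with Benjamini-Hochberg adjustment over 21070 features), which is 2 of 90 genes, beside 2.64% of all named genes called in this comparison and 1.32% called lower. At an unadjusted p under 0.05, 28 genes were lower and 0 higher, where 9.74% of named genes were lower and 8.28% higher. In 25 genes every P6 control pool lay below every P3 control pool, where 6.2% of named genes did so, and in 1 gene, Sdhc, every P6 pool lay above, where 6.41% did so. Among genes above background on all 16 arrays, 25 of the 83 lay wholly below, and 519 of the 6460 named genes did. In these sets 28 and 759 genes were lower at an unadjusted p under 0.05 in limma. The median below 0 held under each scaling of the arrays that was tried.

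In Kir2.1 cells the same age step gave a median of -0.12, with 64 of 90 genes below 0, against -0.08 over named genes. The side of 0 on which the median lay depended on the scaling: it was 0.05 when arrays were scaled over all probes, where 39 genes lay below 0, and 0.01 after quantile normalization. No gene passed the threshold, beside 0.956% of named genes called, and 4 were lower and 1 higher at an unadjusted p under 0.05 in limma, where 7.54% and 6.64% of named genes were. The pools did not overlap in 4 lower genes (Ndufb10, Ndufs6, Cox7b2 and Atp5g3) and 1 higher gene (Sdhd), against 4.74% and 3.61% of named genes.

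Kir2.1 cells and control cells at P3 differed little in these genes when arrays were scaled over the probes detected on every array. The median difference was -0.08, against -0.10 over named genes, with 36 genes above 0 and 54 below. None was called, beside 0.00831% of named genes, and 1 gene (Sdha, lower) had an unadjusted p under 0.05 in limma, where 3.53% of named genes were lower and 2.53% higher. The pools did not overlap in 5 lower genes (Cox4i2, Cox7b, Ndufa7, Ndufaf7 and Uqcrq) and 2 higher genes (Ndufb5 and Ndufs7), against 3.22% and 2.68% of named genes. After quantile normalization the medians of complexes II, III, IV and V were -0.33, -0.26, -0.23 and -0.25. Below 0 then lay 4 of 4, 8 of 9, 14 of 17 and 16 of 17 genes. Scaling over all probes gave medians of -0.30, -0.12, -0.09 and -0.1 for these complexes.

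At P6 the differences were mostly above 0. The median of Kir2.1 against control was 0.18, against -0.09 over named genes, and 62 genes lay above 0 and 28 below. None passed the threshold in limma, beside 1.8% of named genes called; at an unadjusted p under 0.05, 16 genes were higher, where 7.63% of named genes were, and 2 were lower, where 9.56% were. The pools did not overlap in 6 higher genes (Atp5k, Atp5mpl, Atp5pb, Cox4i1, Sdha and Sdhd) and 2 lower genes (Cox4i2 and Uqcrfs1), against 3.07% and 5.01% of named genes. Without pool 3 of P6 Kir2.1 the median was 0.32 and 1 gene, Cox5a, was called higher. Scaling over all probes moved the median of named genes to 0.12 and that of the 90 genes to 0.40, with 74 above 0 and 16 below, so both medians moved up together. The mean of the Kir2.1 differences at both ages had a median of 0.11, and none of the 90 genes was called, beside 0.706% of named genes, with 5 higher and 2 lower at an unadjusted p under 0.05 in limma, where 5.17% and 7.69% of named genes were. The comparisons of age in control cells and of Kir2.1 at P6 share the P6 control pools, so their opposite signs are not independent of each other.

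**Figure D2:**
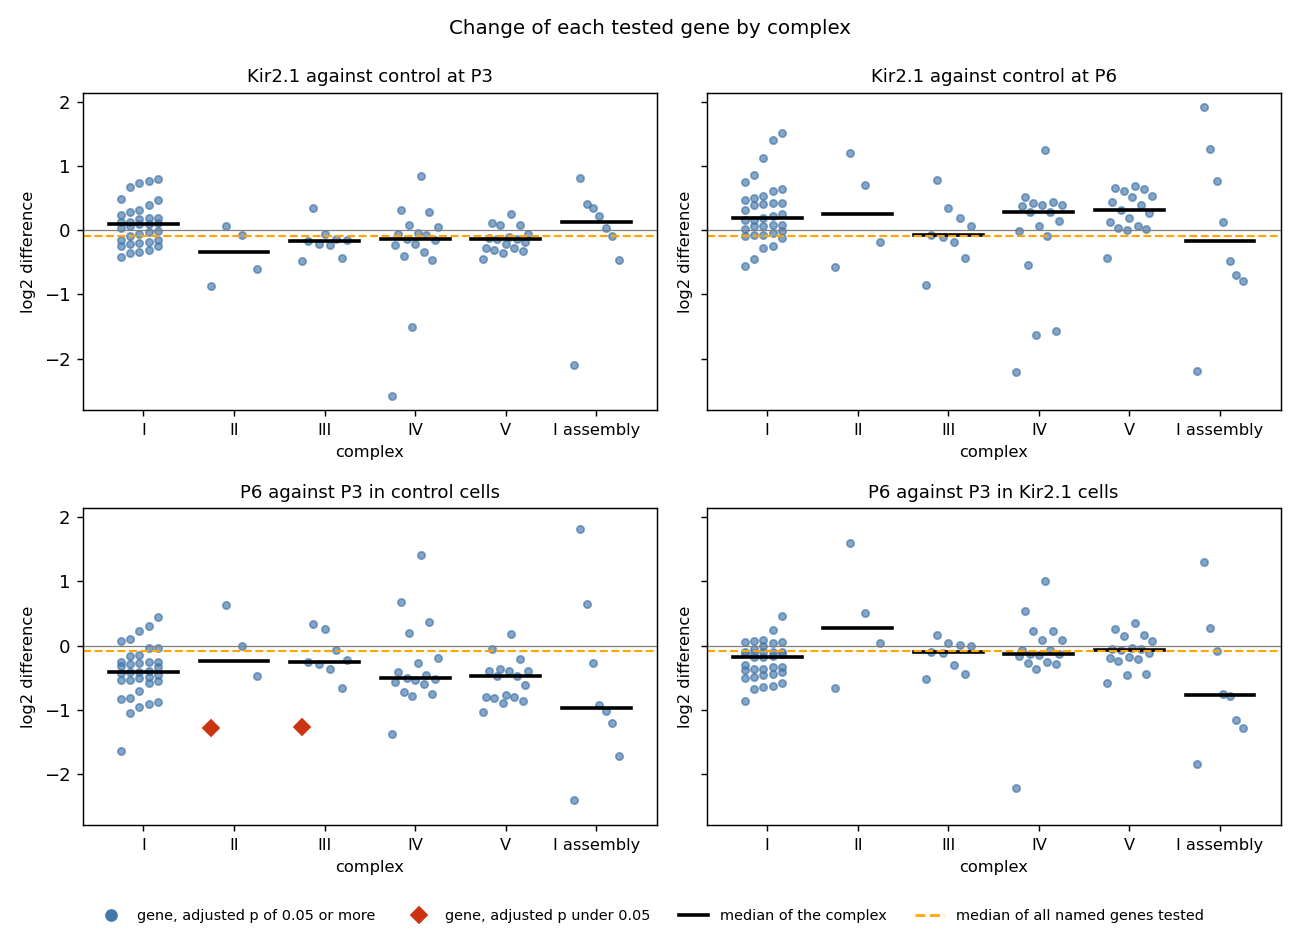
Log2 difference of each of the 90 tested genes (points, vertical axis) by complex (horizontal axis) in 4 comparisons. Black bars mark each complex's median and the dashed line the median of all 12035 named genes; red diamonds mark Sdha and Cyc1, the 2 genes with an adjusted p under 0.05, both in P6 against P3 control cells.

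The same genes summarised by pool gave a matching picture of levels. The median level over the 90 genes was 2.00, 2.25, 2.05 and 1.98 in the 4 P3 control pools and 1.92, 2.09, 2.19 and 1.87 in the P3 Kir2.1 pools. It was 1.65, 1.72, 1.61 and 1.55 in the P6 control pools and 1.93, 1.75, 1.52 and 2.09 in the P6 Kir2.1 pools. Every P6 control pool lay below every P3 pool of either kind, whereas the P6 Kir2.1 pools spanned the range from below the P6 control pools to within the P3 pools. Pool 3 was the low one.

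**Figure D3:**
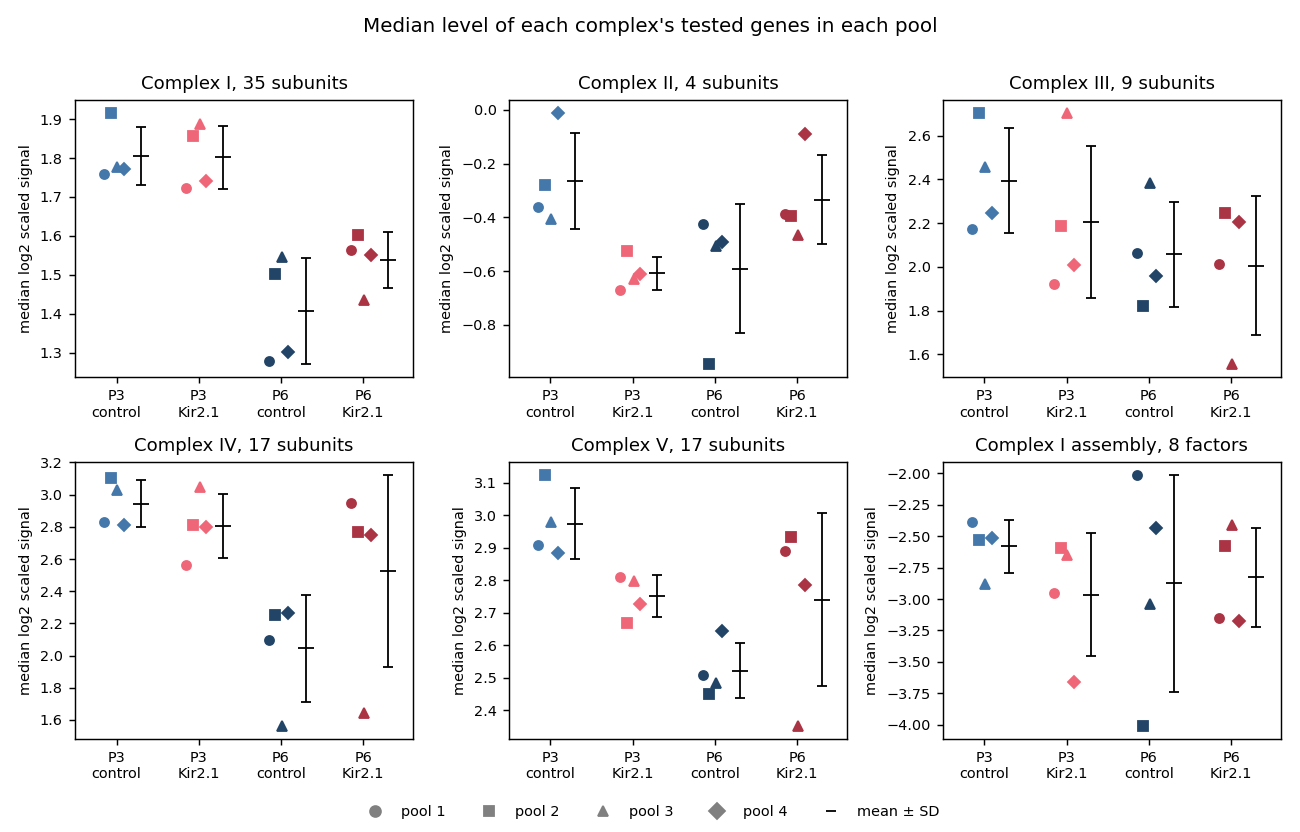
Median level of the tested genes of each complex, as log2 scaled signal (vertical axes, each panel with its own range), in each pool of the 4 groups; symbols mark pools and black bars the mean ± SD of 4 pools. In complex IV, pool 3 of P6 Kir2.1 lies at 1.64 and the other pools of that group between 2.75 and 2.95.

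Complex I, the NADH dehydrogenase and the largest of the complexes, had 35 tested subunits. From P3 to P6 in control cells 30 of 35 lay below 0, with a median of -0.42. None was called, beside 2.64% of named genes. At an unadjusted p under 0.05 in limma, 9 were lower and 0 higher, where 9.74% and 8.28% of named genes were. The median of Kir2.1 against control was 0.18 at P6, with 25 of 35 above 0, and 0.33 without pool 3 of P6 Kir2.1. At P3 it was 0.09, and it turned to -0.004 after quantile normalization.

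Ndufb6, an accessory subunit of the membrane arm, had the lowest p of complex I for age in control cells. Its levels were 1.76, 1.44, 1.52 and 1.60 in P3 control and 1.00, 1.07, 0.45 and 0.47 in P6 control. All P6 pools lay below all P3 pools, and the difference of -0.83 (SE 0.23) had an adjusted p of 0.0764 in limma. Next came Ndufv1, the subunit of the matrix arm that binds NADH, at 1.97, 2.61, 2.03 and 2.63 in P3 control and 1.61, 1.5, 0.43 and 1.46 in P6 control. The groups did not overlap, and pool 3 was the lowest at P6 (difference -1.06, SE 0.31, adjusted p 0.0923 in limma). In the P6 Kir2.1 pools Ndufv1 was at 2.25, 1.92, 1.59 and 2.71, which overlapped the P6 control range by pool 3 alone (difference 0.87, SE 0.31, adjusted p 0.171 in limma). Without pool 3 of P6 Kir2.1 this difference was 1.04, without pool 3 of P6 control 0.59 and without both 0.77, with adjusted p of 0.129, 0.296 and 0.180.

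Ndufv3, a small subunit beside Ndufv1, had the lowest p of complex I for Kir2.1 at P6. It was at 3.24, 2.94, 1.75 and 3.29 in the P6 control pools and 4.43, 4.24, 3.29 and 3.77 in P6 Kir2.1. In each group pool 3 was the lowest, and pool 3 of P6 Kir2.1 lay inside the P6 control range (difference 1.13, SE 0.39, adjusted p 0.15 in limma). Leaving out pool 3 of P6 Kir2.1 gave 1.34 for Ndufv3, leaving out pool 3 of P6 control 0.78 and leaving out both 0.99, with adjusted p of 0.118, 0.261 and 0.164. Its second probe, above background on 5 arrays, gave 0.91 for the same difference and the opposite sign for age in control cells.

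At P3 the lowest p of complex I belonged to Ndufs8 and Ndufs7, which carry iron-sulfur clusters next to the ubiquinone site. Ndufs7 was at 2.16, 1.85, 2.07 and 2.16 in P3 control and 2.48, 2.62, 2.40 and 2.72 in P3 Kir2.1. All Kir2.1 pools lay above all control pools, and the difference was 0.49 (SE 0.26, adjusted p 0.813 in limma). The SE rests on the spread in all 4 groups. The SD of Ndufs7 was 0.14 in each P3 group and 0.41 in each P6 group. For Ndufs8 the difference was 0.79 (SE 0.39, adjusted p 0.797). At P6 the differences were 0.02 for Ndufs7 and -0.05 for Ndufs8. Among the larger P6 differences was that of Ndufa10, 1.51 (SE 0.62, adjusted p 0.227 in limma), with a low pool 4 of P6 control at -4.65. In Kir2.1 cells the age step had its lowest p in Ndufb10 (-0.64, SE 0.23, adjusted p 0.204 in limma), whose P6 levels of 1.93, 1.76, 1.85 and 1.85 all lay below its P3 levels of 2.36, 2.35, 2.81 and 2.42, and in Ndufb9 (-0.68, SE 0.25, adjusted p 0.221).

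Complex II, succinate dehydrogenase, joins the tricarboxylic acid cycle to the respiratory chain and has 4 subunits, all tested. Sdha oxidises succinate, Sdhb carries the iron-sulfur clusters, and Sdhc and Sdhd anchor the complex in the membrane. The 4 did not move as a unit. Sdha was at -0.36, 0.32, -0.14 and 0.02 in P3 control and at -1.21, -1.87, -1.07 and -1.13 in P6 control. It was at -0.33, -0.53, -0.87 and -0.88 in P3 Kir2.1 and at -1.05, -0.59, -0.06 and -0.77 in P6 Kir2.1. Every P6 control pool lay below every other pool of the series, and pool 3 of P6 Kir2.1, low for most genes, was the highest of its group.

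In control cells Sdha fell by 1.28 from P3 to P6 (SE 0.27, adjusted p 0.0285 in limma). The call was lost without pool 2, 3 or 4 of P3 control or pool 2 of P6 control, with an adjusted p of up to 0.0783. It was also lost under 4 of 10 other settings, with an adjusted p of up to 0.0975 in limma. In Kir2.1 cells the age difference was 0.04 (SE 0.27, adjusted p 0.967). Kir2.1 against control gave -0.61 at P3 (SE 0.27, adjusted p 0.744), where the groups overlapped, and 0.70 at P6 (SE 0.27, adjusted p 0.206), where they did not.

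Sdhd was at -6.23, -6.06, -6.03 and -6.37 in P6 control and at -5.35, -5.40, -5.10 and -4.06 in P6 Kir2.1. The groups did not overlap, and the difference was 1.195 (SE 0.43, adjusted p 0.17 in limma). At P3 Kir2.1 pools were at -6.04, -7.32, -5.53 and -7.41 and control pools at -6.12, -5.71, -5.13 and -5.84, a difference of -0.87 (SE 0.43, adjusted p 0.799), with the probe above background in 3 of the 4 Kir2.1 pools. In Kir2.1 cells the age step gave 1.60 (SE 0.43, adjusted p 0.106), the lowest p of the 90 genes in that contrast. With normexp background correction the Sdhd values were smaller, 0.36 for Kir2.1 at P6 (adjusted p 0.374 in limma), -0.28 at P3 and 0.48 for age in Kir2.1 cells (adjusted p 0.358). Sdhb and Sdhc went other ways. Sdhb differed by -0.01 with age in control cells and by -0.58 (SE 0.28, adjusted p 0.306) with Kir2.1 at P6, and by -0.65 (SE 0.28, adjusted p 0.292) with age in Kir2.1 cells. Sdhc was at -0.36, -0.88, -0.67 and -0.04 in P3 control and at 0.37, -0.03, 0.06 and 0.14 in P6 control. It was the one gene of the 90 whose P6 control pools all lay above its P3 control pools, by 0.62 (SE 0.31, adjusted p 0.315), and its second probe gave 0.39.

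NRF1 is a transcription factor known for binding many genes of the respiratory chain. The start regions of Sdha and Sdhd show the sequence that it is known to prefer. The promoter table of RefSeq (GRCm38.p6), with 250 bases before to 50 bases after the start, held 81 promoters of 76 of the 94 genes. The NRF1 motif, GCGCA followed by any base and GCGC, searched on both strands, was present in 20 of the 81 (24.7%), against 4.6% of all 32851 promoters. Matches whose 30-base window lies wholly before the start are shown for the complex II genes that hold one, and below them for 3 genes of complex V, since these complexes held the motif in the largest shares (2 of 3 and 6 of 15 genes with a promoter). Capitals mark the match, 10 bases long, and letters run 5′ to 3′ on the gene's strand.
Sdha, chr13:74350319-74350348, minus strand: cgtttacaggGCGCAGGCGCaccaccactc
Sdha, chr13:74350276-74350305, minus strand: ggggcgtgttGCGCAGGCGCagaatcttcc
Sdhd, chr9:50603909-50603938, minus strand: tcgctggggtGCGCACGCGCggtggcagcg
Atp5g2, chr15:102671070-102671099, minus strand: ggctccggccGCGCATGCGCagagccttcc
Atp5h, chr11:115420041-115420070, minus strand: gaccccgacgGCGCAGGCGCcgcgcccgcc
Atp5k, chr5:108434430-108434459, minus strand: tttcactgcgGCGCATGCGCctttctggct

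The matches in Sdha begin 98 and 55 bases before the start, and another, not shown, begins 10 bases before it. That of Sdhd begins 79 bases before the start, those of Atp5g2, Atp5h and Atp5k 42, 141 and 50. In the annotation the first Sdha window overlaps Ccdc127, that of Sdhd Timm8b and that of Atp5k Gm34319, and the other windows lie in no annotated gene. Motifs of other factors were searched the same way, and they were present in 23.5% of the 81 promoters for the ETS motif CCGGAAG (8.86% of all promoters), 13.6% for the YY1 motif AAGATGGC (2.75%) and 9.88% for the ERR motif AAGGTCA (4.72%). For age in control cells the median was -0.47 over 19 tested genes with the NRF1 motif, 18 of them below 0. It was -0.45 over 55 without that motif, 46 below 0. For Kir2.1 at P6 the medians of genes with and without the NRF1 motif were 0.31 and 0.19. At P3 they were 0.03, with 9 of 19 below 0, and -0.07, with 34 of 55 below 0. Whether genes with and without the motif differ was not tested. A match describes the letters and shows no binding.

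Complex III, the cytochrome bc1 complex, had 9 tested subunits. Cyc1, its heme-bearing cytochrome c1, was at 2.02, 2.30, 2.46 and 2.25 in P3 control and at 1.82, 1.39, 0.36 and 0.39 in P6 control. The groups did not overlap, and the P6 control pools were split, with pools 3 and 4 well below the others. Cyc1 fell by 1.27 (SE 0.31, adjusted p 0.0487 in limma). Its call was lost in 14 of 16 fits that left out a pool, all but those without pool 1 or pool 2 of P6 control, with an adjusted p of up to 0.131. The call was also lost under 6 of 10 other settings, with an adjusted p of up to 0.171 in limma. In P3 Kir2.1 Cyc1 was at 1.58, 1.70, 2.09 and 1.71 and in P6 Kir2.1 at 1.72, 1.59, 1.68 and 2.06. The difference with age was -0.01 (SE 0.31). Against control, Kir2.1 pools gave -0.49 at P3 (adjusted p 0.847) and 0.78 at P6 (adjusted p 0.218).

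Uqcrfs1, the Rieske iron-sulfur protein of the same complex, differed the other way at P6. Its levels were 0.26, 0.44, -0.07 and -0.11 in the P6 control pools and -0.54, -0.80, -1.08 and -0.50 in P6 Kir2.1. No Kir2.1 pool reached the lowest control pool (difference -0.86, SE 0.24, adjusted p 0.0869 in limma); with normexp background correction it was called (adjusted p 0.0418). At P3 control pools were at -0.15, 0.14, -0.49 and -0.30 and Kir2.1 pools at -0.35, -0.51, -0.57 and -1.10, which overlapped (difference -0.43, SE 0.24, adjusted p 0.830). The core proteins Uqcrc1 and Uqcrc2 differed by -0.08 and -0.43 at P6. Over the 9 subunits the median at P6 was -0.08, with 4 above 0; it was 0.08 without pool 3 of P6 Kir2.1 and 0.14 with scaling over all probes. With age in control cells the median was -0.26 and 7 of 9 lay below 0. At P3, 8 of 9 lay below 0 in Kir2.1 cells, with a median of -0.16. In Kir2.1 cells, the lowest p for age were those of Uqcrc2 (-0.52, adjusted p 0.362) and Uqcr10 (-0.45, adjusted p 0.650), a small subunit that differed by -0.66 (adjusted p 0.416) in control cells.

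Complex IV, cytochrome c oxidase, had 17 tested genes. Its median was -0.50 with age in control cells (13 of 17 below 0) and 0.28 for Kir2.1 at P6 (11 of 17 above 0), and -0.13 for Kir2.1 at P3 (12 of 17 below 0). The pool medians of the complex showed pool 3 apart in both P6 groups, at 1.56 against 2.1 to 2.27 for the other control pools and at 1.64 against 2.75 to 2.95 for the other Kir2.1 pools. The median for Kir2.1 at P6 was 0.29 without pool 3 of P6 Kir2.1 and 0.13 without pool 3 of both groups.

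Cox5a, an early assembling nuclear subunit, had the lowest p of the complex both for age in control cells and for Kir2.1 at P6. It was at 3.08, 3.31, 3.18 and 3.39 in P3 control and at 2.17, 2.25, 0.94 and 2.06 in P6 control. In Kir2.1 cells it was at 2.56, 2.99, 3.36 and 3.12 at P3 and at 3.19, 3.33, 2.19 and 3.68 at P6. The P6 control pools lay below all others except pool 3 of P6 Kir2.1. The age difference in control cells was -1.38 (SE 0.35, adjusted p 0.0575 in limma) and that in Kir2.1 cells 0.09 (adjusted p 0.935). Kir2.1 against control at P6 gave 1.24 (SE 0.35, adjusted p 0.0869), and without pool 3 of P6 Kir2.1 it gave 1.54 (adjusted p 0.0381). With pool 3 of both P6 groups left out the difference was 1.24 and the adjusted p 0.0410. Cox7c, a small membrane subunit, was at 3.46, 3.91, 3.6 and 3.81 in P3 control and 2.81, 2.92, 2.92 and 3.00 in P6 control, which did not overlap (difference -0.78, SE 0.23, adjusted p 0.0933 in limma); in Kir2.1 cells the age difference was -0.28 (adjusted p 0.624).

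Several subunits of complex IV come in isoforms, one used in most cells and others restricted to particular tissues or conditions. Cox4i1, the general isoform of subunit 4, had means of 3.42 at P3 and 3.23 at P6 in control cells and 3.50 and 3.37 in Kir2.1 cells. Its P6 control pools lay below the pools of P3 control and of P6 Kir2.1 without overlap, by small differences of -0.19 (adjusted p 0.649 in limma) with age, which was 0.04 after quantile normalization, and 0.14 (adjusted p 0.748) with Kir2.1. Cox4i2, the isoform known from lung and from cells under low oxygen, was above background on all arrays. It was at -3.05, -3.12, -3.07 and -2.80 in P3 control and -3.77, -3.48, -3.13 and -3.28 in P3 Kir2.1. At P6 it was at -2.49, -2.51, -3.00 and -2.57 in control and -3.15, -3.35, -3.22 and -3.03 in Kir2.1 cells. At each age every Kir2.1 pool lay below every control pool, which held for this 1 gene of the 90 and for 0.59% of named genes in either direction. The nearest pools were close at P3 (-3.12 and -3.13) and at P6 (-3.00 and -3.03), and the mean difference over both ages was -0.48 (SE 0.15, adjusted p 0.167 in limma), with -0.41 at P3 and -0.55 at P6.

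Cox5b, a subunit of its own and not an isoform of Cox5a, differed by -0.57 with age in control cells (adjusted p 0.187 in limma), with no overlap. With Kir2.1 at P6 it differed by 0.28. The other isoforms split by detection. The general isoforms Cox6a1, Cox6b1, Cox7a2, Cox7b and Cox8a were above background on all arrays, with age differences in control cells of -0.53, -0.28, -0.76, -0.59 and -0.50 and Kir2.1 differences at P6 of 0.52, 0.07, 0.43, -0.01 and 0.40. Adjusted p-values for these ranged from 0.193 to 0.984 in limma. Cox7b also had the lowest p of the complex for Kir2.1 at P3 (-0.46, SE 0.23, adjusted p 0.803), without overlap of the pools. Cox7a2l, which takes part in joining complexes III and IV, differed by -0.45 and 0.45, and Ndufa4 by -0.52 and 0.40.

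Cox6a2, Cox7a1 and Cox7b2 were seen on fewer arrays. Cox6a2, of heart and skeletal muscle, was above background on 7 arrays, Cox7a1, of the same tissues, on 9 and Cox7b2 on 4. In P6 control, Cox6a2 was at -2.03, -9.01, -4.75 and -7.85 and Cox7a1 at -6.55, -9.01, -2.76 and -1.28. None of the differences of these 3 genes had an adjusted p below 0.40. Cox6b2, known from testis, was above background on all arrays; it was at -4.94, -5.06, -5.70 and -5.21 in P3 control and spread from -5.97 to -1.54 in P6 control. For Cox7b2 the age difference in control cells was 0.19 and turned to -1.12 without pool 2 of P6 control. In Kir2.1 cells it was above background in 2 pools at P3 and 0 at P6, so the size of the age difference is not measured (fitted difference -2.22, adjusted p 0.404 in limma). Ndufa4l2, a relative of Ndufa4 known to be induced by low oxygen, was above background in pools 1 and 2 of P6 Kir2.1, at -4.77 and -3.03, and nowhere else. Pools 3 and 4 of P6 Kir2.1, at -8.29 and -10.16, were not above background, so no fold over P6 control is given, and the gene was not tested. The vascular marker sum was 1.85 and 1.67 in pools 1 and 2 of P6 Kir2.1, against -0.80 and -0.43 in pools 3 and 4. Its part in the Ndufa4l2 level was not tested.

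**Figure D4:**
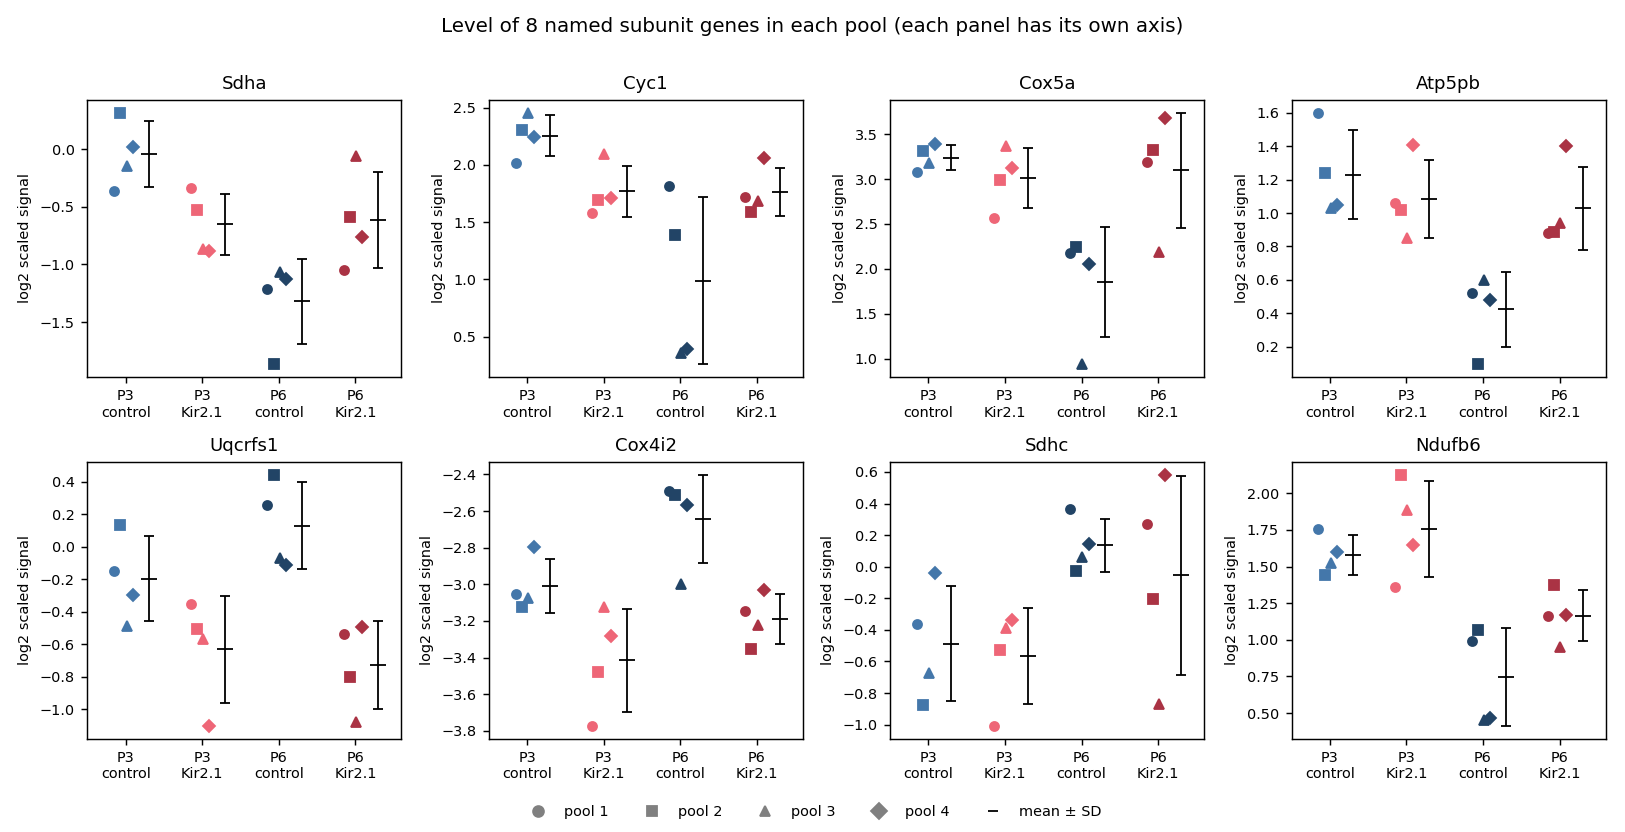
Level of 8 subunit genes in each pool, as log2 scaled signal (vertical axes, each panel with its own range), in the 4 groups; symbols mark pools and black bars the mean ± SD of 4 pools. Sdha, Cyc1, Cox5a, Atp5pb and Ndufb6 have their lowest mean in P6 control, whereas Uqcrfs1, Cox4i2 and Sdhc have their highest there.

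Complex V, the ATP synthase, had 17 tested genes. With age in control cells 16 of 17 lay below 0, with a median of -0.48. None was called, beside 2.64% of named genes. At an unadjusted p under 0.05 in limma, 9 were lower and 0 higher, where 9.74% and 8.28% of named genes were. With Kir2.1 at P6, 16 of 17 lay above 0, with a median of 0.31, and 12 of 17 did so after quantile normalization. At P3, 13 of 17 lay below 0 in Kir2.1 cells, with a median of -0.14. The exception at P6 was Atp5e, the small epsilon subunit of the catalytic head (-0.43, adjusted p 0.498 in limma), which also had the lowest p of the complex for age in Kir2.1 cells (-0.59, adjusted p 0.395), and the exception with age was Atp5h, a subunit of the stalk that holds the head in place (0.17), whose second probe gave -0.0005.

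Atp5a1 and Atp5b encode the alpha and beta subunits, which form the catalytic head. Atp5a1 was at 2.91, 2.92, 2.62 and 2.85 in P3 control and 2.08, 2.45, 1.73 and 1.94 in P6 control. It was at 2.17, 2.29, 2.62 and 2.39 in P3 Kir2.1 and 2.65, 2.81, 2.34 and 3.04 in P6 Kir2.1. The P6 control pools all lay below the P3 control pools (difference -0.77, SE 0.22, adjusted p 0.0876 in limma), and Kir2.1 pools were below control at P3 in the mean (-0.45, adjusted p 0.801) and above it at P6 (0.66, adjusted p 0.143), with overlap at both ages. Atp5b differed by -0.81 with age in control cells, without overlap, by -0.36 with Kir2.1 at P3 and by 0.26 with Kir2.1 at P6.

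Among the stalk and membrane subunits, Atp5pb, Atp5mpl and Atp5k had P6 control pools apart from both P3 control and P6 Kir2.1. Atp5pb, the b subunit of the stalk, was at 1.60, 1.24, 1.03 and 1.05 in P3 control, 0.52, 0.10, 0.60 and 0.48 in the P6 control pools and 0.88, 0.89, 0.94 and 1.40 in P6 Kir2.1. P6 control lay apart from both groups (age difference -0.81, SE 0.22, adjusted p 0.0769; Kir2.1 difference 0.60, SE 0.22, adjusted p 0.184, both in limma). Atp5mpl, a small membrane subunit, was at 3.00, 3.36, 3.58 and 3.36 in P3 control, 2.51, 1.87, 2.71 and 2.1 in the P6 control pools and 2.88, 2.98, 2.78 and 3.07 in P6 Kir2.1. It too was separated on both sides (-1.03, SE 0.27, adjusted p 0.0609 with age and 0.63 with Kir2.1). Atp5k, the e subunit of the membrane part, was the third gene of complex V without overlap between P6 Kir2.1 and P6 control (0.51, adjusted p 0.207).

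The c subunit, whose ring turns as protons pass, is encoded by Atp5g1, Atp5g2 and Atp5g3, which give the same mature protein. Atp5g3 was at 3.41, 3.76, 3.54 and 3.64 in P3 control and 2.88, 2.61, 2.70 and 2.90 in P6 control. The groups did not overlap (difference -0.82, SE 0.24, adjusted p 0.0876 in limma), whereas Atp5g1 and Atp5g2 each differed by -0.39 with overlapping pools (adjusted p 0.328 and 0.526). In Kir2.1 cells Atp5g3 differed by -0.45 with age (adjusted p 0.404), again without overlap. With Kir2.1 at P6 the 3 genes differed by 0.01, 0.18 and 0.31. Whether the 3 differ from each other was not tested.

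The 8 complex I assembly factors, which act on subunits during assembly and are not part of the finished enzyme, varied far more between pools than the subunits, with a median SD of 1.95 in P6 control. Their probes were also dimmer, with P6 control pool medians averaging -2.88 against 1.78 for the subunits. The part of brightness in this spread was not tested. With age in control cells 6 of 8 lay below 0, with a median of -0.97. At an unadjusted p under 0.05 in limma 1 was lower, where 9.74% of named genes were. This was Ndufaf2, at -0.17, -1.15, -0.76 and -0.65 in P3 control and -0.86, -4.13, -5.22 and -2.10 in P6 control, a difference of -2.40 (adjusted p 0.136); it was called without pool 1 of P6 control, which lies inside the P3 range (adjusted p 0.0460). Kir2.1 against control at P6 gave a median of -0.17 that turned to 0.04 with scaling over all probes.

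The difference between the Kir2.1 effect at P6 and that at P3, the interaction of age and Kir2.1, was tested directly. Its median was 0.29 over the 90 genes and 0.04 over named genes, with 62 above 0. None was called, beside 0.0748% of named genes, and 12 genes were higher and 0 lower at an unadjusted p under 0.05 in limma, where 5.15% of named genes were higher and 5.35% lower. The 12 included 6 of the 17 complex V genes. The lowest p were those of Atp5a1 (1.12, SE 0.32, adjusted p 0.210), Sdhd (2.07, SE 0.61, adjusted p 0.225), Sdha (1.31, SE 0.39, adjusted p 0.225), Cox5a (1.47, SE 0.50, adjusted p 0.295) and Cyc1 (1.26, SE 0.44, adjusted p 0.308). In each of these the P6 control pools enter the value.

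Genes that work with the complexes were read from lists of the pathway. Of 37 tested assembly factors outside the symbol rule, 29 lay below 0 with age in control cells, with a median of -0.56. None was called, beside 2.64% of named genes. Of 22 carriers of electrons and nucleotides, 17 lay below 0 with a median of -0.27. They include Cycs, the cytochrome c that shuttles electrons from complex III to complex IV, at 1.81, 2.32, 2.12 and 2.29 in P3 control and 1.03, 0.90, 1.13 and 1.5 in P6 control. These did not overlap (difference -0.9956, SE 0.33, adjusted p 0.133 in limma). Of 18 genes of the tricarboxylic acid cycle, 10 lay above 0 with a median of 0.08, and none was called, beside the same 2.64%. At an unadjusted p under 0.05 in limma, 1 of them was higher and 4 lower, where 8.28% and 9.74% of named genes were. Idh3b, a subunit of the NAD-linked isocitrate dehydrogenase, differed by -2.16 with age in control cells (adjusted p 0.0847 in limma) and by 2.61 with Kir2.1 at P6 (adjusted p 0.0507). In P6 control its pool 3 was at -4.77 and the other pools between -1.53 and -1.29. In the same comparisons Pdhb differed by -1.06 and 0.97, without overlap in either, and Cs by 0.95 and -0.79. None of 15 regulators and none of 4 uncoupling proteins was called in these comparisons. The shares of named genes called were 2.64% with age in control cells and 1.8% with Kir2.1 at P6.

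Among these, some had P6 pools without overlap between control and Kir2.1 cells. Ucp2, a carrier of the inner membrane, was at -2.46, -3.69, -9.55 and -2.87 in the P6 control pools and 0.64, 0.24, -0.13 and 0.33 in P6 Kir2.1 (difference 4.91, SE 1.57, adjusted p 0.126 in limma). Ucp3, a related carrier known from skeletal muscle, was at -3.35, -4.61, -9.46 and -4.24 in the P6 control pools and -0.81, -1.43, -0.90 and -1.39 in P6 Kir2.1 (difference 4.28, SE 1.55, adjusted p 0.173 in limma). Each was above background in 3 of 4 P6 control pools, with pool 3 the lowest, and in all 4 P6 Kir2.1 pools. Ppargc1a, a coactivator known for raising mitochondrial gene expression, has 2 probes. At least 1 of them was above background in 3 P6 control pools and in 1 P6 Kir2.1 pool. The probe used was at -5.53, -2.86, -7.60 and -4.14 in P6 control and at -9.99, -10.00, -9.71 and -10.40 in P6 Kir2.1 (difference -4.99, SE 1.5, adjusted p 0.103 in limma). In P6 Kir2.1 it was as low as Cox8b, above background on 0 arrays (-10.01, -9.98, -9.78 and -10.40). The size of the fitted difference thus depends on signal at background.

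Of 16 tested glycolysis genes, 3 rose with age in control cells and none was called lower, beside 1.32% of named genes called higher; 9 lay above 0 and the median was 0.02. At an unadjusted p under 0.05 in limma, 4 were higher and 3 lower, where 8.28% and 9.74% of named genes were. Gpi1, which converts glucose 6-phosphate, was at 0.80, 1.78, 1.18 and 1.33 in P3 control and 2.25, 2.63, 2.43 and 2.69 in P6 control (difference 1.23, SE 0.24, adjusted p 0.0163 in limma). Aldoa, an aldolase, rose by 1.07 (SE 0.23, adjusted p 0.0301) and Eno2, the neuronal enolase, by 1.53 (SE 0.38, adjusted p 0.0491). In none of the 3 did the age groups overlap. In Kir2.1 cells Aldoa rose by 1.29 (SE 0.23, adjusted p 0.0270), Eno2 differed by 1.70 (adjusted p 0.0557), and Gpi1, whose P6 Kir2.1 pools were at 1.44, 1.70, 1.23 and 1.62, lay below all P6 control pools (Kir2.1 difference -0.9967, SE 0.24, adjusted p 0.0507). Other glycolysis genes were lower in P6 control. Pgk1, phosphoglycerate kinase, had a mean of 1.84 at P3 and 0.87 at P6 in control cells, Pkm, a pyruvate kinase, means of 2.32 and 1.42, and Tpi1, triosephosphate isomerase, means of 1.56 and 0.61. In each of these every P6 control pool lay below every P3 control pool, and none was called.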

How the data were processed

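The arrays were 1-colour Agilent arrays; per the file headers, Feature Extraction 10.7.3.1 made the processed signal that the authors deposited, an intensity on a linear scale with background subtracted. The deposited value table holds the same signal as a ratio to the array's 75th percentile, as a comparison with the scanner files showed, and served as an alternative. Control and outlier spots were left out and spots of a probe averaged. The share of probes well above background was 34.3% to 41% per array, so log2 signals were scaled by the 75th percentile over the 12104 probes above background on all 16 arrays. Symbols came from RefSeq accessions (GRCm38.p6) for 26582 of 28116 probes with an accession. Each gene was read from its probe of highest mean; 23 genes had several tested probes, which agreed in sign in 21 (age in control cells) and 19 (Kir2.1 at P6).

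Features above background on at least 4 arrays (21070) were fitted together on all 16 arrays with limma 3.58.1 (R 4.3.3; lmFit, eBayes, 4 group means, 12 residual and 1.64 prior degrees of freedom), with Benjamini-Hochberg adjustment over all features of a contrast and a threshold of 0.05. The fit was tested on simulated data with independent pools and the same spread of a gene in every group. That test did not cover the wider spread at P6 or shifts of whole pools. The number of arrays limits the precision. Genes named with values were those past the threshold, the 2 with the lowest p per complex and contrast, isoforms, Cox5b, complex II, and genes without overlap at both ages and, in the pathway lists up to 3 by lowest p. Ndufa10, Uqcrc1, Atp5k, Atp5h, Ndufaf2, Pgk1, Pkm, Tpi1 and the genes given by name alone for not overlapping were named after their values were seen. The genes and lists were chosen with earlier results of these data known. Alternatives were other scalings, normexp background correction (on the median signal, since the mean signal was not in the columns used), other filters, the mean of a gene's probes, the replicate number as a block, the compared groups alone, and leaving out each array; leaving out pool 3 of both P6 groups was added after the data were seen. Replicate numbers did not pair the pools.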

Additional observations from a re-analysis of the deposited data

Results flagged for a closer look

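A pool far from the other 3 of its group was looked for in 24 group values of the pool medians and in 104 group values of 26 named genes. Of these 128, 15 (11.7%) met the criterion, which about 5% of independent, normally distributed sets would meet. The sets here share the same pools, and the genes were chosen from results of these data. The share therefore cannot show an excess over chance. Among pool medians, pool 2 of P3 control was high for complex I (1.92, next 1.78), pool 2 of P6 control low for complex II (-0.95, next -0.51) and pool 3 of P6 Kir2.1 low for complex IV (1.64, next 2.75). Pool 3 of P6 Kir2.1 was also low for Atp5g3 (2.35, next 3.28) and Uqcr10 (0.55, next 2.01), and pool 3 of P6 control for Cox4i2 (-3.00, next -2.57), Cox5a (0.94, next 2.06) and Ndufv1 (0.43, next 1.46). Pool 4 of P6 Kir2.1 was high for Atp5pb (1.40, next 0.94). At P3, pool 3 of Kir2.1 was low for Atp5g3 (3.40, next 3.56) and high for Ndufb10 (2.81, next 2.42), pool 1 of control was low for Ndufv3 (2.86, next 3.47) and pool 2 of control high for Sdhb (2.30, next 1.87). Cox7b2 had 1 bright pool in P3 control (pool 3, -6.13, next -9.05) and 1 in P6 control (pool 2, -4.38, next -9.35), with the others at background.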

How the results depend on the processing

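For Kir2.1 at P6, 1 gene was called with scaling over all probes (higher), normexp (lower), the deposited value table (higher) and without pool 3 of both P6 groups (higher); leaving out a pool gave 0 to 1. For age in control cells the count of 2 became 1 with quantile normalization, 7 with normexp, 4 with a filter at 8 arrays, 0 without a filter, 1 with the mean of a gene's probes, 0 with the compared groups alone and 4 without pool 3 of both P6 groups; leaving out a pool gave 0 to 3. Counts of the other 4 contrasts were 0 under every setting run.

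The median difference for Kir2.1 at P6 was 0.3963 with scaling over all probes, 0.3872 with the deposited table and 0.1722 to 0.3242 on leaving out a pool. For age in control cells it was -0.3141 with quantile normalization and -0.4723 to -0.3842 on leaving out a pool. That of the interaction was 0.4653 with scaling over all probes and 0.2505 to 0.3484 on leaving out a pool. Leaving out a pool gave -0.1337 to -0.0244 for Kir2.1 at P3, 0.0576 to 0.1415 for the mean of both ages and -0.1935 to -0.0311 for age in Kir2.1 cells.

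Among the genes given with values, sign changes of note were those of Cox4i1 with age in control cells (0.0435 after quantile normalization) and Cox7b2 in the same contrast (-1.1186 without pool 2 of P6 control, and up to 0.9854 without pool 3 of P3 control). The replicate number as a block left 0 genes called for age in control cells and 198 of the named genes in place of 318; same-numbered pools correlated between -0.033 and 0.071 in their deviations from group means, and 2 of 16 pools correlated best with their own number, so the numbers were not taken to pair samples. Over all named genes, the count for age in control cells was 170 without a filter and 105 with the compared groups alone, and that for Kir2.1 at P6 was 433 with normexp, 114 without a filter, 112 with the replicate block and 10 with the compared groups alone, in place of 217. The causes of these differences were not tested.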
